A study of Mus musculus with 6 samples.

Results

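Lung capillaries are built from 2 kinds of endothelial cell, and 10 genes used to tell them apart were followed in lungs of old and young mice after acid injury. Aerocytes are large, thin cells spread over the alveolus for gas exchange, and they are marked in mice by Car4, Apln, Tbx2, Prx and Fibin. General capillary cells are smaller, serve as the progenitors of the capillary bed in the mouse lung, and are marked by Aplnr, Gpihbp1, Plvap, Cd93 and Emcn. The pair is linked by apelin, a secreted peptide made by aerocytes, whose receptor is carried by general capillary cells.

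The genes were chosen by name and looked up by symbol among 19033 genes with usable values. Of the 10, 7 had 6 readable FPKM values, which divide a gene's fragments by its length and by the library total. These were Car4, Tbx2, Prx and Fibin of the aerocyte genes and Aplnr, Gpihbp1 and Cd93 of the general capillary genes. No well-formed row was found for Apln or Emcn, and 4 of the 6 Plvap values were unreadable, so these 3 genes are not analysed here. Prx was below the filter on low values, a mean of at least 1 FPKM over the 6 libraries, which left 6 genes tested.

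The libraries came from 3 old and 3 young mice of the strain labelled C57/BL6, 1 library per mouse. All 6 mice had received acid injury and all libraries are labelled as endothelial cells of the lung, and no uninjured library was analysed here. The labels give neither ages in weeks nor the time after injury, and their protocol speaks of homogenized tissue without naming a step that isolates cells. Library totals implied by the FPKM values ran from 11381122 to 17931463 fragments.

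The endothelial label was checked against 18 pan-endothelial genes and against markers of other cells. The summed FPKM of the pan-endothelial genes was 94.6 to 310 in the old libraries and 925 to 2122 in the young. The 6 measured fibroblast genes, Col1a1 among them, summed to 2085 to 4842 FPKM in the old and 108 to 210 FPKM in the young libraries, and 6 of 6 rose. The 5 epithelial genes summed to 603 to 744 FPKM in the old and 58.7 to 191 FPKM in the young, and 2 of 5 rose. The 6 neutrophil genes summed to 23668 FPKM in young mouse 2 and 24002 FPKM in young mouse 3, but to 52.8 FPKM in young mouse 1 and to 321 to 905 FPKM in the old libraries. Mesothelial genes summed to 158 to 367 FPKM in the old and 8.85 to 33.6 FPKM in the young, and 3 of 5 rose. Lymphocyte genes summed to 1651 to 3734 and 15.9 to 416 FPKM, and 0 of 6 were called. Macrophage and monocyte genes summed to 834 to 2214 FPKM in the old and 168, 3232 and 9483 FPKM in young mice 1, 2 and 3. Erythroid and platelet genes summed to 729 to 1399 FPKM in the old and 740 to 1383 FPKM in the young. None of the fibroblast, epithelial or neutrophil genes measured was at 0 in any library. In bulk RNA, fewer capillary cells and less RNA per capillary cell cannot be told apart. The part of these other cell types in the values of the capillary genes was not tested.

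Levels of the 7 measured genes spanned over 3 orders of magnitude. Gpihbp1 was the most abundant, with a mean of 381 FPKM over the 6 libraries and 98.8% of the tested genes below it. Car4 followed at 59.4 FPKM, Cd93 at 23.9, Tbx2 at 9.17, Aplnr at 5.29 and Fibin at 2.29 FPKM. Prx, which encodes periaxin, a scaffold protein of lung capillary endothelium and of myelinating Schwann cells, was at a mean of 0.180 FPKM and rested on 7 to 35 fragments per library. Gpihbp1 was above Car4 in 6 of 6 libraries. The other neighbours changed places from library to library, with Car4 above Cd93 in 4 of 6, Cd93 above Tbx2 in 5, Tbx2 above Aplnr in 4 and Aplnr above Fibin in 2.

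**Figure D1:**
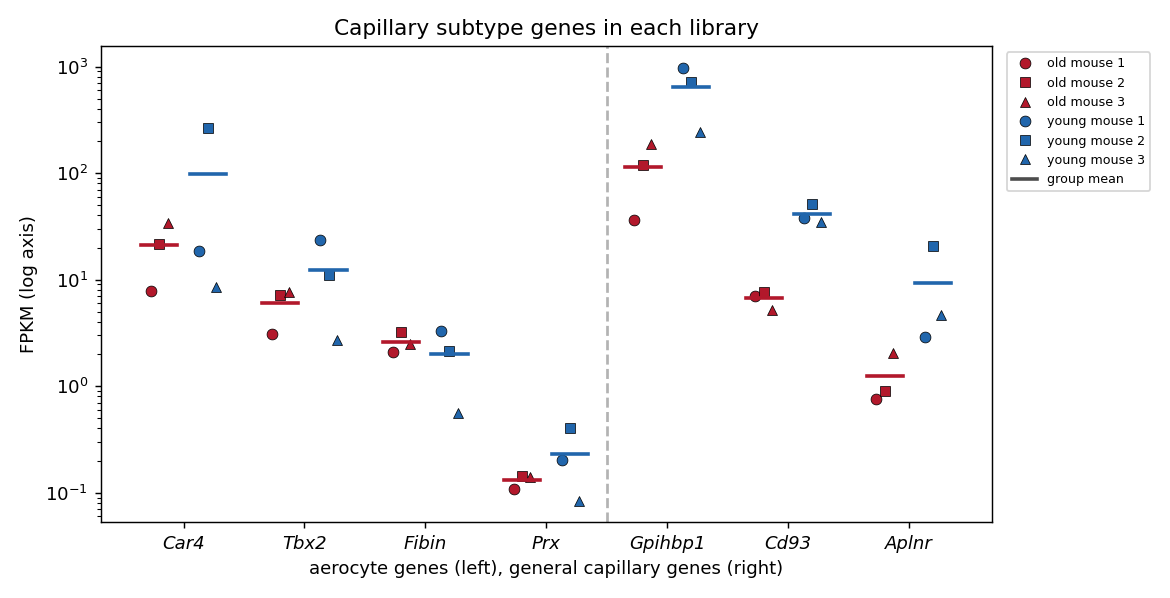
FPKM on a log axis for the 7 measured capillary genes, 1 point per library, red for old and blue for young, with a bar at each group mean (n = 3 mice each). Gpihbp1, Cd93 and Aplnr are lower in all 3 old libraries than in any young one, while the groups overlap for Car4, Tbx2, Fibin and Prx.

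Each of the 3 measured general capillary genes was lower in every old library than in any young one, and 1 of the 3 passed the test. Cd93 was 5.49-fold lower, and Gpihbp1 and Aplnr had ratios of 5.93-fold and 3.59-fold without passing. Across all 10010 genes tested, 4.98% were called, 2.03% lower in old mice and 2.95% higher. The groups did not overlap for 31.1% of genes, and all old libraries lay below all young ones for 16.7%. The median log2 fold change of the 3 genes was -2.46, against -0.01 over all genes tested. Each log2 fold change is the old mean less the young mean of log2(FPKM + 1), and the fold ratios given here come from it.

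Cd93 (chromosome 2, 148436640 to 148443563, GRCm38, minus strand) encodes a C-type lectin-like receptor of endothelium that binds the matrix protein multimerin 2. Old mice 1, 2 and 3 held 7.07, 7.63 and 5.24 FPKM, and young mice 1, 2 and 3 held 38.0, 51.1 and 34.4 FPKM. The spread inside each group was narrow, with the highest library 1.46 times the lowest in old and 1.49 times in young mice, and the groups did not overlap. The log2 fold change was -2.46 ± 0.26 (SE, limma adjusted p = 0.00696). Cd93 passed with each library left out in turn (highest limma adjusted p = 0.0457). Against young mouse 1 alone, where the lone young library is assumed to vary like the others, the log2 fold change was -2.36. All calls were lost in that fit, so a call lost there tells nothing about a single gene. Counts of alternatives given below include it.

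Gpihbp1 (chromosome 15, 75596628 to 75599481, plus strand) encodes the protein that holds lipoprotein lipase at the capillary wall. Old mice 1, 2 and 3 held 36.0, 119 and 186 FPKM, and young mice 1, 2 and 3 held 978, 724 and 244 FPKM. Old mouse 3 and young mouse 3 lay close to each other, and the groups did not overlap. The group means were 114 ± 75.2 and 649 ± 373 FPKM (SD, n = 3 each). The log2 fold change of -2.57 ± 0.74 (SE) was as large as that of Cd93 but did not pass (limma adjusted p = 0.0981, 95% interval -4.31 to -0.82).

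Aplnr (chromosome 2, 85136225 to 85139923, plus strand) encodes the apelin receptor, a G protein-coupled receptor. Old mice 1, 2 and 3 held 0.757, 0.903 and 2.07 FPKM, and young mice 1, 2 and 3 held 2.90, 20.5 and 4.66 FPKM. Young mouse 2 stood 4.39 times above the next library, and young mouse 1 was the young library nearest to the highest old one, old mouse 3. The log2 fold change was -1.84 ± 0.63 (SE, limma adjusted p = 0.145, 95% interval -3.34 to -0.34). Apela, which encodes another peptide ligand of the receptor, was at 0.335 FPKM in old mouse 1 and 0.0278 FPKM in old mouse 2 and was listed at 0 in the other libraries.

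The aerocyte genes showed no such separation. None of the 3 tested passed, and their old and young libraries overlapped. The median log2 fold change was -0.64. Whether the aerocyte genes differed from the general capillary genes in their response was not tested.

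Promoter sequence from RefSeq (GRCm38.p6) matched 5 of the 10 genes. It is shown for Car4 and Prx, the most and the least abundant of the 4 measured aerocyte genes. Each line gives the 250 bases before the RefSeq gene start, 5′ to 3′ on the gene's strand, from chr11:84957504-84957753 (plus) and chr7:27499074-27499323 (plus). The Fibin window is not printed because it runs into the gene as GENCODE draws it.
Car4: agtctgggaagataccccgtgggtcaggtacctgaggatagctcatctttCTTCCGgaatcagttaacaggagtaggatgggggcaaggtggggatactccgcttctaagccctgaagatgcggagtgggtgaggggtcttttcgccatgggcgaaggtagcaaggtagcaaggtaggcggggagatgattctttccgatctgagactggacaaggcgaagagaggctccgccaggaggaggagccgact
Prx: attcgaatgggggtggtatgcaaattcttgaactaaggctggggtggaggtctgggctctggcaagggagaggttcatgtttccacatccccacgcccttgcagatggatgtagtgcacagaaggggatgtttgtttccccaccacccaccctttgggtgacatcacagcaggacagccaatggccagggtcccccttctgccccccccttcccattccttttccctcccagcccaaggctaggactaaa

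Capitals mark a match, on either strand, to an ETS core AGGAAG or CGGAAG, a T-box site AGGTGT or a TATA box TATAAA. ETS factors are a main family of endothelial transcription factors, and the T-box site is the kind of sequence that TBX2 binds. The Car4 window held 1 match, CGGAAG on the opposite strand starting 200 bases before the gene start, and no matches overlapped. The Fibin and Prx windows held none of these letters. Of 32851 promoter windows of that length, 29.5% held AGGAAG, 13.6% CGGAAG, 11.8% AGGTGT and 12.4% TATAAA. GC content was 56.4% for both Car4 and Prx.

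Car4 (chromosome 11, 84957786 to 84966044, plus strand) encodes a carbonic anhydrase anchored on the outer cell membrane, which speeds the conversion of bicarbonate and carbon dioxide. Old mice 1, 2 and 3 held 7.89, 21.6 and 34.0 FPKM, and young mice 1, 2 and 3 held 18.6, 266 and 8.57 FPKM. Young mouse 2 was 7.81 times above the next library, which was an old one, and the lowest young library was near the lowest old one. The log2 fold change was -0.94 ± 1.21 (SE, limma adjusted p = 0.670, 95% interval -3.82 to 1.94). Without young mouse 2 it turned to 0.49 (adjusted p = 0.701), so its direction rested on that library.

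Tbx2 (chromosome 11, 85832551 to 85841948, plus strand) encodes a T-box transcription factor that is also made in lung mesenchyme. Old mice 1, 2 and 3 held 3.07, 7.15 and 7.71 FPKM, and young mice 1, 2 and 3 held 23.3, 11.1 and 2.72 FPKM. The highest and the lowest of the 6 values both came from young mice. The log2 fold change was -0.64 ± 0.69 (SE, limma adjusted p = 0.603, 95% interval -2.27 to 0.99).

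Fibin (chromosome 2, 110360917 to 110363183, minus strand) encodes a small secreted protein named for its role in fin bud initiation in zebrafish. Old mice 1, 2 and 3 held 2.07, 3.22 and 2.46 FPKM, and young mice 1, 2 and 3 held 3.29, 2.13 and 0.562 FPKM. The old values lay inside the range of the young ones, and 5 of the 6 libraries were between 2.07 and 3.29 FPKM. The log2 fold change was 0.36 ± 0.40 (SE, limma adjusted p = 0.610, 95% interval -0.58 to 1.31), and it turned to -0.045 without young mouse 3 and to -0.27 against young mouse 1 alone.

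Prx (chromosome 7, 27499324 to 27520214, plus strand) rested on 8, 9 and 14 fragments in old mice 1, 2 and 3 and on 20, 35 and 7 fragments in young mice 1, 2 and 3. These fragments gave 0.108, 0.142 and 0.140 FPKM in the old libraries and 0.202, 0.404 and 0.0842 FPKM in the young. The old values lay inside the range of the young ones. The gene length recovered from the FPKM values was that of the merged exons in GENCODE M21 for Prx (5579 bases), Car4 (1966), Tbx2 (3626), Fibin (2267), Aplnr (3699), Gpihbp1 (2554) and Cd93 (6677).

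Set against the pan-endothelial genes of the same library, none of the 3 general capillary genes passed, and the 3 tested aerocyte genes were higher in old mice, as were most genes. The mean log2(FPKM + 1) of the 18 pan-endothelial genes was 1.98, 3.35 and 3.50 in old mice 1, 2 and 3 and 6.44, 5.82 and 5.22 in young mice 1, 2 and 3. After that mean was subtracted in each library, the log2 fold change was 0.31 ± 0.87 (SE) for Gpihbp1, 0.42 ± 0.74 for Cd93 and 1.04 ± 0.75 for Aplnr, and none of the 3 passed (limma adjusted p = 0.723, 0.569 and 0.171). Car4 was higher by 1.94 ± 0.75, Tbx2 by 2.24 ± 0.73 and Fibin by 3.25 ± 0.78 (limma adjusted p = 0.0109, 0.00271 and 9.48e-05). All genes share the subtracted mean, and the fit pooled their spread, so SEs and p-values do not measure a gene's own spread between mice. For relative Car4 the SD was 0.27 in old and 2.48 in young mice (n = 3 each). It was 0.23 and 0.77 for Tbx2 and 0.69 and 0.20 for Fibin. Scaling by the pan-endothelial mean shifted the median gene to 2.87 and called 94.6% of genes, 94.6% higher and 0.04% lower. The groups were left without overlap for 93% of genes, with all old libraries below all young ones for 0.0599%. The 3 of 3 aerocyte genes called are therefore close to the background share. Car4 and Tbx2 lay below the median gene and Fibin above it. The call for Car4 ended without old mouse 1, young mouse 1 or young mouse 3 (highest adjusted p = 0.170), and its change was 3.37 without young mouse 2. The 95% intervals of the general capillary genes, -1.40 to 2.03 for Gpihbp1, -1.02 to 1.87 for Cd93 and -0.43 to 2.51 for Aplnr, include 0. These intervals rest on the same pooled spread, not on each gene's own spread between the mice.

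**Figure D2:**
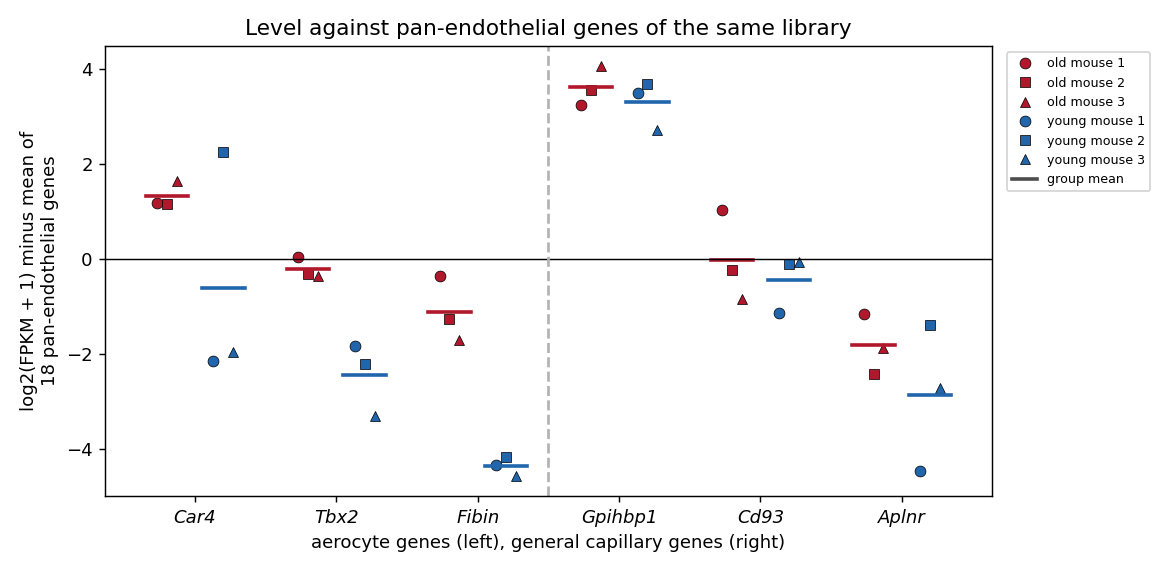
Log2(FPKM + 1) of each tested gene minus the mean of 18 pan-endothelial genes in the same library, 1 point per library, red for old and blue for young, with a bar at the group mean (n = 3 mice each). Tbx2 and Fibin sit higher in all old libraries, Car4 does so except for young mouse 2, and the groups overlap for Gpihbp1, Cd93 and Aplnr.

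Ratios of FPKM inside a library give these relations on a linear scale. Per Pecam1, an endothelial adhesion molecule, 3 of the 6 tested genes were higher in every old library: Gpihbp1, Tbx2 and Fibin. The same held for 91% of all genes, and the groups did not overlap for 91.2%, so the ratios set none of the 3 apart. Gpihbp1 per Pecam1 was 9.64, 19.8 and 23.6 in old mice 1, 2 and 3 and 8.79, 9.02 and 6.09 in young mice 1, 2 and 3. Tbx2 per Pecam1 was 0.822, 1.19 and 0.976 in the old and 0.209, 0.138 and 0.0679 in the young libraries, and Fibin per Pecam1 was 0.311 to 0.555 against 0.0140 to 0.0295. For Cd93, Aplnr and Car4 per Pecam1 the groups overlapped.

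Per Gpihbp1, Tbx2 was at 0.0414 to 0.0853 in the old and 0.0112 to 0.0238 in the young libraries, without overlap, as were 60.4% of all genes, 60% with every old library above. Car4 per Gpihbp1 was steady in the old libraries, at 0.219, 0.181 and 0.183, and varied in the young, at 0.0190, 0.367 and 0.0351, and the groups overlapped, as they did for Aplnr and Cd93 per Gpihbp1. Fibin per Gpihbp1 is not given here, so Tbx2 is not shown to be alone in separating the groups. The summed fibroblast genes were also higher in every old library, and their part in the Tbx2 and Fibin ratios was not tested.

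Further genes of each subtype did not move as one. Of 10 other aerocyte genes, 6 were tested and 2 fell, with a median log2 fold change of -1.95. The endothelin receptor Ednrb ranged from 1.74 to 6.51 FPKM in the old mice against 38.5 to 87.3 in the young, and fell by 3.38 ± 0.49 on the log2 scale (SE, limma adjusted p = 0.0179). The receptor for vascular endothelial growth factor, Kdr, at 1.06 to 4.93 against 23.5 to 105 FPKM, fell by 3.33 ± 0.67 (adjusted p = 0.0412). Cyp4b1, a cytochrome P450, was lower in every old library without passing (log2 fold change -3.07 ± 0.70, adjusted p = 0.0569). For Chst1, Tbx3 and Igfbp7 the groups overlapped, as they did for Car4, Tbx2 and Fibin. The call for Ednrb was lost with a replicate block, without old mouse 2 and without old mouse 3. The call for Kdr was lost in 10 of 16 alternatives, among them each of the 6 that leave out 1 library (adjusted p up to 0.115 in those 6).

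Of 11 other general capillary genes, 5 were tested, 1 rose and 0 fell, with a median log2 fold change of 0.59. Sema3c, a secreted semaphorin, ranged from 2.35 to 4.97 FPKM in the old mice against 0.269 to 0.966 in the young, and rose by 1.53 ± 0.33 (SE, limma adjusted p = 0.0499). That call was lost in 12 of 15 alternatives, among them each of the 6 that leave out 1 library (adjusted p up to 0.123 in those 6). Cd300lg, a receptor of capillary and venular endothelium, was ordered over the libraries as Gpihbp1 was, with 5.28, 14.7 and 27.9 FPKM in the old mice and 165, 100.5 and 36.4 FPKM in the young (log2 fold change -2.60 ± 0.71, adjusted p = 0.0875). Lpl, Cadm1 and Cxcl12 overlapped between the groups. Sema3c and Cxcl12 were highest in old mouse 2, as were 6 of 6 fibroblast genes and 15.1% of all genes tested. Cadm1 was highest in old mouse 1, Lpl in young mouse 2 and Cd300lg in young mouse 1. The part of fibroblasts in the values of these genes was not tested.

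**Figure D3:**
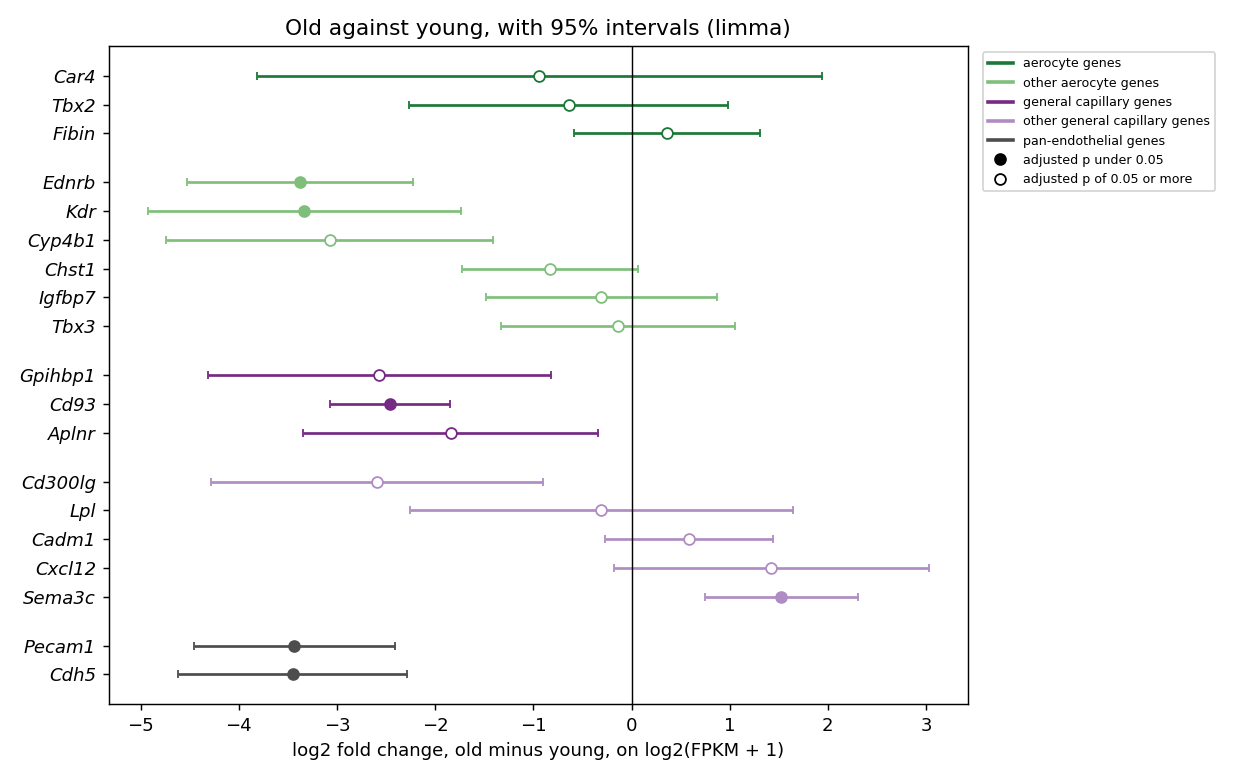
Log2 fold change of old minus young on log2(FPKM + 1) with 95% intervals from limma (n = 3 mice each) for the capillary genes, other genes of both subtypes, Pecam1 and Cdh5. Filled points passed an adjusted p of 0.05. Among the members only Cd93 did, at -2.46, and among the other genes shown Ednrb, Kdr, Sema3c, Pecam1 and Cdh5 did.

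Partners of the capillary genes were read from the same fit. For lipid handling at the capillary wall, where Gpihbp1 acts, 1 of 10 tested genes fell and 0 rose (median log2 fold change -0.63). Pparg, a nuclear receptor of lipid metabolism, fell by 2.12 ± 0.46 (SE, limma adjusted p = 0.0499), a call lost in 11 of 16 alternatives, among them each of the 6 that leave out 1 library (adjusted p up to 0.146). Lpl, the lipase that Gpihbp1 binds, gave 12.0, 29.5 and 68.6 FPKM for old mice 1, 2 and 3 and 14.2, 98.0 and 33.7 FPKM for young mice 1, 2 and 3. The fatty acid transporter Cd36 gave 17.9, 44.5 and 125 FPKM for the old and 363, 906 and 97.8 FPKM for the young. The groups overlapped for both genes.

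Of the Cd93 family and its ligand, 1 of 4 tested genes fell and 0 rose (median -2.05). Mmrn2, the multimerin that Cd93 binds, gave 1.38, 4.85 and 4.62 FPKM for old mice 1, 2 and 3 and 86.2, 54.7 and 30.4 FPKM for young mice 1, 2 and 3, and fell by 3.64 ± 0.50 (SE, limma adjusted p = 0.0158). Mmrn2 lost its call without old mouse 3 and with a replicate block. The related lectin Clec14a was lower in every old library (1.32 to 10.3 against 21.1 to 90.2 FPKM, adjusted p = 0.0719), and Cd248, a relative made by fibroblasts and pericytes, was higher in every old library (21.6 to 31.2 against 0.472 to 9.99 FPKM, adjusted p = 0.0672), without passing. Of sialomucins like Emcn together with the adhesion molecule Mcam, 2 of 4 tested fell and 0 rose (median -1.19). Podxl fell by 2.45 ± 0.42 (adjusted p = 0.0273) and Mcam by 2.36 ± 0.32 (adjusted p = 0.0158), while Cd34, a sialomucin shared with fibroblasts, ranged from 26.6 to 29.2 FPKM in the old mice and from 12.5 to 42.3 in the young. The call for Podxl was lost in 8 of 16 alternatives, among them each that leaves out 1 library except young mouse 3 (adjusted p up to 0.0828 in those). Mcam lost its call without old mouse 3 and with the block.

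Of the carbonic anhydrase genes other than Car4, 0 of 6 tested passed (median -0.21), and Car8, a member without catalytic activity, was the most abundant of them. Car8 was lower in every old mouse, at 4.36, 9.40 and 14.3 FPKM against 66.1, 22.4 and 40.0 FPKM in the young, without passing (limma adjusted p = 0.0679). Car3, which like Car4 was highest in young mouse 2, gave 35.0 FPKM there and 0.328 to 5.54 FPKM elsewhere. Of the other T-box genes, 0 of 4 passed (median -0.29), with values between 0.113 and 5.65 FPKM over the 4 genes. Of genes of caveolae, the membrane pits on whose openings Plvap forms diaphragms, 0 of 5 passed (median -0.39). Of the apelin partners 0 of 2 passed (median -0.89): the arrestin Arrb1 was lower in every old library (0.843 to 1.65 against 2.41 to 6.73 FPKM), and Arrb2 overlapped. Of the periaxin partners 0 of 3 passed (median -0.25). The membrane linker Ezr was higher in every old library (43.2 to 57.6 against 8.69 to 34.9 FPKM), and utrophin, Utrn, lower (3.93 to 5.58 against 8.75 to 19.6 FPKM). By comparison, 11 of 18 pan-endothelial genes fell and 0 rose (median -2.88), among them Pecam1 (log2 fold change -3.44 ± 0.43, SE, limma adjusted p = 0.0115) and the cadherin Cdh5 (-3.45 ± 0.49, adjusted p = 0.0176). Both lost the call with the block, Pecam1 also without old mouse 2 and Cdh5 without old mouse 3.

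Young mouse 2 held the highest Car4, Aplnr and Cd93 values of all libraries, and genes of lipid uptake and caveolae stood high in the same library. It was the highest library for 8 of 10 lipid handling genes and 4 of 5 caveolae genes, against 10.3% of all genes tested. That lipid handling list also holds Ly6c1, Ly6a and Tcf15. Young mouse 2 was also highest for 3 of 6 other aerocyte genes, 2 of 4 sialomucins with Mcam and 4 of 18 pan-endothelial genes. It was highest for 1 of 6 arterial and 0 of 5 venous genes. Tcf15, a transcription factor of capillary endothelium in heart and muscle, reached 253 FPKM there against 2.40 to 45.5 elsewhere. Ly6c1, a surface protein of capillary endothelium, was at 1968 FPKM there against 55.7 to 308 FPKM elsewhere, and Cav1, the main coat protein of caveolae, at 503 against 24.1 to 88.4 FPKM. Of the smooth muscle and pericyte genes, 4 of 4 were highest there too, with Acta2 at 810 FPKM there, 24.4 and 37.8 FPKM in young mice 1 and 3 and 456 to 583 FPKM in the old mice. The part of that cell type in the Car4 value was not tested.

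**Figure D4:**
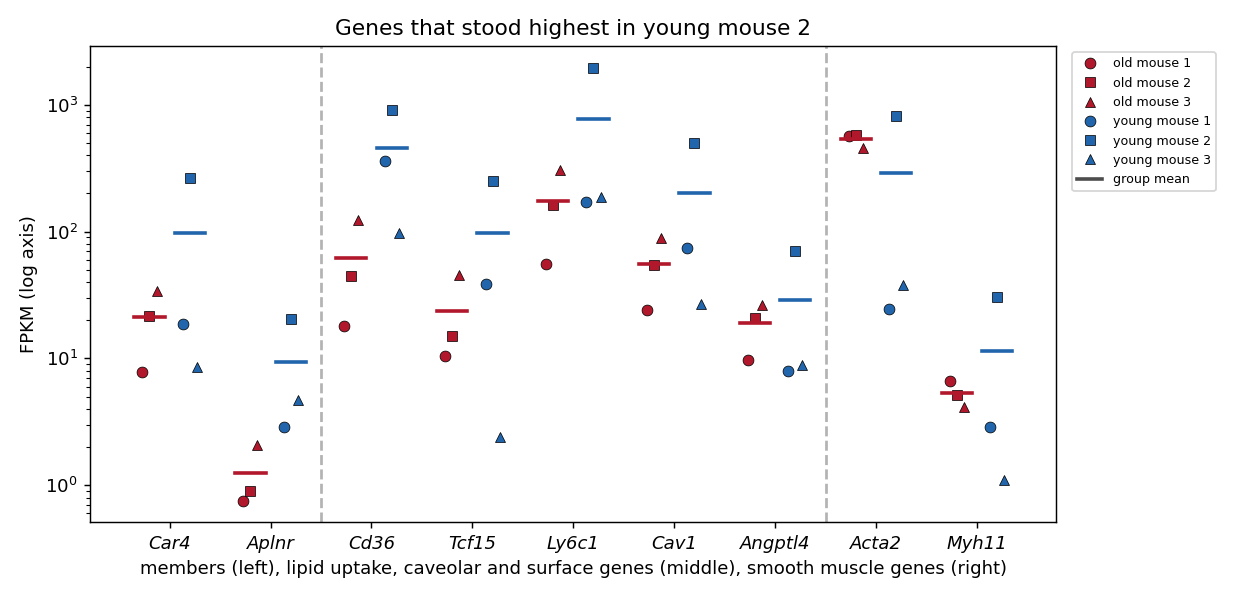
FPKM on a log axis for Car4, Aplnr, 5 genes of lipid uptake, caveolae or capillary surface (Ly6c1) and 2 smooth muscle genes, chosen after their values were seen, with 1 point per library and a bar at the group mean (n = 3 mice each). The blue square of young mouse 2 is the highest point for each gene, at 266 FPKM for Car4 and 1968 FPKM for Ly6c1.

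Over the 6 libraries, which share these differences between mice, the genes whose log2(FPKM + 1) followed Car4 most closely were Ercc1, a DNA repair gene (Pearson's r = 0.996), Gm12002 (0.992) and Acta1, skeletal muscle actin (0.991). Acta1 reached 88.1 FPKM in young mouse 2 against 2.11 to 13.4 elsewhere. For Aplnr they were Tln2, a talin of focal adhesions (0.994), Gm38197 (0.989) and Gm16046 (0.988). Both sets were picked for the highest r among the tested genes outside the members, so the size of r was not a test. Among the members themselves, r was 0.71 to 0.80 between the 3 general capillary genes and 0.27 to 0.70 between the 3 aerocyte genes. Pairs across the subtypes ran from -0.31 (Fibin and Cd93) to 0.78 (Car4 and Aplnr), with 0.77 for Tbx2 and Gpihbp1. Each r also holds the difference between old and young mice. Car4 was closer to Aplnr (0.78) than to Tbx2 (0.49).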

How the data were processed

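RNA of 3 old and 3 young mice was measured, 1 library each. The authors deposited 1 table of FPKM values per library. The submitters' processing notes name CASAVA 1.7, Bowtie 0.12.2 and mm8, without their roles. The counter used is not given in the sources at hand. Exon lengths of GENCODE M21 (GRCm38) matched the values for 78.85% of genes, and coordinates are from M21. The tables are damaged after the first 2884 of 24720 rows. Rows were kept with a known unique identifier, 6 readable values under 1000000 and a gene length giving whole fragments in all libraries (tolerance 1e-06 fragments plus a relative 3e-13), and 22.99% were left out. The 18 unlabelled other columns per table were not used. Rows of 1 symbol were summed.

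limma 3.58.1 (R 4.3.3) compared log2(FPKM + 1) for genes with a mean of at least 1 FPKM (variance trend, no covariates, two-sided, Benjamini-Hochberg over 10010 genes, threshold 0.05). A fold change on this scale understates changes of low genes. A second fit subtracted each library's mean of 18 pan-endothelial genes. The first fit, but not the second, was tested on simulated data, drawn independently for each gene. Mice are separate per the labels. The mouse numbers were not taken to pair the samples in the main fit. Members and lists were chosen with earlier results of these data known. Outside the members, the rule named up to 4 genes per list with the largest changes that passed. Lists with none gave at most 2 genes, those of highest level. It also named Pecam1, Cdh5 and the 3 genes most correlated with Car4 and with Aplnr. Not every gene the rule allows is named. Named outside it, after their values were seen, were Cyp4b1, Chst1, Tbx3, Igfbp7, Cd300lg, Lpl, Cadm1, Cxcl12, Clec14a, Cd248, Cd34, Cd36, Apela, the genes singled out for young mouse 2, and the ratios.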

Additional observations from a re-analysis of the deposited data

How the results depend on the processing

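With other settings the count of all genes called was 323 at a pseudocount of 0.01, 223 with no filter, 292 with a mean FPKM of at least 5, 126 with a replicate block and 0 against young mouse 1 alone (limma, 2289 at an unadjusted p under 0.05), and 84 (without old mouse 3) to 403 (without young mouse 2) when 1 library was left out, with 132 without old mouse 2, 183 without old mouse 1, 194 without young mouse 3 and 261 without young mouse 1. Causes were not tested. Cd93 was the 1 member called in every setting run, except that 0 were called against young mouse 1 alone (3 at an unadjusted p under 0.05). Between the deviations of same-numbered mice r was -0.09, -0.003 and 0.01, and between other pairs it ran from -0.18 to 0.16. With 3 mice per group these values cannot settle whether the mouse numbers pair the samples. Fibin turned to -0.27 against young mouse 1 alone. With 1 library left out, Fibin ran from -0.045 (without young mouse 3) to 0.68 and Car4 from -1.91 to 0.49 (without young mouse 2). In the fit relative to pan-endothelial genes, 18514 genes were called with no filter and 5002 at a mean FPKM of at least 5, Aplnr turned to -0.027 with array weights (whose iterative fit stopped before full convergence in some runs), Cd93 ran from -0.10 (without old mouse 1) to 0.84 with 1 library left out, and Aplnr passed (adjusted p = 0.0267) relative to Pecam1 and Cdh5 alone. Relative Car4 lost its call with array weights, the block and without old mouse 1, young mouse 1 or young mouse 3 (highest adjusted p 0.195), and Tbx2 against young mouse 1 alone (0.196). In that fit 2 to 3 members were called when 1 library was left out. Scaling by a trimmed mean of M-values was written out directly and added after the data were seen, in place of the planned package routine. Fibin gives no value at a mean FPKM of at least 5. Depth limits Prx, with 7 to 35 fragments per library.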
